A study of Mus musculus with 6 samples.

Results

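The 9 genes described here are the receptors, coreceptors and transcription factors of Sonic hedgehog signalling in cells sorted as astrocytes from the mouse cortex: Ptch1, Smo, Gli1, Gli2, Gli3, Gas1, Boc, Cdon and Hhip. They were chosen by gene symbol, with earlier results of these data known. Every probe set that the platform annotation assigned to exactly 1 of these symbols was taken, which gave 24 of the 45037 probe sets tested, and 9 of 18193 named genes. Each gene had 1 to 4 probe sets, and no probe set was shared with another symbol. Expression was measured on 6 Affymetrix mouse arrays in a series on galectins in the injured brain. The 3 reactive arrays carried RNA of sorted fluorescent cells from FVB/N mice of the line TgN(hGFAP-EGFP) GFEA, in which a human GFAP promoter drives EGFP. Those mice had been stabbed in the grey matter of the somatosensory cortex, to a depth of 0.7 mm over a length of 1 to 1.2 mm, and were examined 5 days later. The 3 non-reactive arrays carried cells of the same region from uninjured FVB/N mice of the line Tg(Aldh1l1-eGFP)OFC789Gsat. All mice were 2 to 3 months old, their sex was not determined, and each array pooled the sorted cells of about 15 animals. Injury and reporter line coincide in this design, so their parts in any difference cannot be told apart.

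Sonic hedgehog is a secreted ligand that in the adult cortex comes mainly from neurons and is received by astrocytes. Without ligand the receptor Ptch1 holds the membrane protein Smo inactive, and Gli3, together with Gli2, is processed into a repressor. When ligand binds Ptch1, with the help of the coreceptors Gas1, Boc and Cdon, Smo becomes active at the primary cilium and the Gli proteins activate transcription. Gli1, Ptch1 and Hhip are themselves targets of the pathway, and Gli1 transcript is commonly used as its readout.

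The cells of both groups carried the defining astrocyte transcripts, and other cell types were also represented. The mean log2 level of 8 astrocyte genes was 9.74 to 10.1 in the reactive arrays against 10.7 to 11.02 in the non-reactive ones. Of these genes, 7 of the 8 were lower in every reactive array (87.5%), Gfap being the exception. Over all genes, 8.20% were lower in every reactive array and 13.5% higher in every one. The mean of 13 microglia and macrophage genes was 9.40 to 9.77 in the reactive arrays against 7.44 to 7.80 in the non-reactive ones, and 9 of the 13 were higher in every reactive array. For 7 oligodendrocyte genes the means were 9.84 to 10.4 and 8.49 to 9.36. Of these 7, 4 were higher in every reactive array (57.1%) and 1, Mbp, was lower in every one (14.3%). For 9 neuron genes the means were 7.28 to 8.90 and 8.08 to 8.53. For 6 oligodendrocyte precursor genes they were 7.43 to 8.13 and 6.82 to 7.43, with 1 of the 6 higher in every reactive array (16.7%). For 9 cycling genes they were 5.03 to 7.03 and 4.37 to 4.81, without overlap. For 9 endothelial and mural genes they were 4.83 to 5.96 and 4.87 to 5.38, and 6 of the 9 differences were positive. The mural genes Pdgfrb (-2.24) and Rgs5 (-0.98) were lower in every reactive array and Tek (0.32) was higher in every one. The mural genes Acta2 (1.36) and Kcnj8 (0.40) were higher on average, with overlap. Markers of other cell types also had signal in the non-reactive arrays. Their mean there reached the median of all probe sets, 4.74, for 12 of 13 microglia and macrophage genes. It did so for 7 of 7 oligodendrocyte, 6 of 6 oligodendrocyte precursor and 9 of 9 neuron genes. Fewer reached it among endothelial and mural (5 of 9), fibroblast (4 of 6) and cycling genes (3 of 9). Over the 6 arrays, 12106 genes other than the members had a mean of at least 4.74, of 18193 named genes. Reactive replicate 3 stood apart from the other reactive arrays. Its fibroblast genes had a mean of 6.96 against 4.83 and 4.99, its cycling genes 7.03 against 5.03 and 5.52, and its neuron genes 7.28 against 8.35 and 8.90. The array carries control probe sets at the 3′ and 5′ ends of 4 RNAs, and the log2 difference between the ends is used to judge RNA length. For Pcx it was 1.15 to 1.66 in the reactive arrays against 3.42 to 3.50 in the non-reactive ones, for Gapdh 3.85 to 4.64 against 4.77 to 5.74 and for Actb 2.53 to 4.27 against 4.48 to 5.37. For 18S rRNA it went the other way, at 0.60 to 1.12 against -1.55 to -0.92. The part of cell makeup and of these control differences in the results that follow was not tested. In bulk RNA, fewer cells of a type and less RNA per cell cannot be told apart.

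Gli3 was the member that passed the test, and it was lower in the reactive arrays. At 1 of its 3 probe sets it fell 4.19-fold in the reactive arrays. Ptch1, Smo, Gli1, Gli2 and Gas1 also measured lower in every reactive array at their leading probe set, the one with the highest mean over the 6 arrays, by log2 differences of -2.69 to -1.30, but none of these passed. Boc, Cdon and Hhip overlapped between the groups at their leading probe sets. Over the 24 probe sets, 1 fell and 0 rose at a limma adjusted p under 0.05, where 0.584% of all probe sets fell and 0.266% rose. Without adjustment, 11 were lower and 0 higher at p under 0.05, which is 45.8% of the members against 6.90% of all probe sets for lower values, with 6.34% for higher. The reactive arrays lay below the non-reactive ones with no overlap for 11 of the 24 probe sets, a share of 45.8%, against 8.08% of all probe sets. None lay above, against 12.8% of all probe sets. Several of the 24 probe sets measure the same gene and are not independent. At the leading probe sets, 6 of the 9 genes were lower at an unadjusted p under 0.05 (66.7%, against 7.13% of all genes). The members were chosen with earlier results of these data known, so these shares are a description and not a test. The median log2 difference was -0.66 over the 24 probe sets and -1.41 over the 9 leading ones, against 0.10 over all probe sets and 0.12 over all genes.

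**Figure D1:**
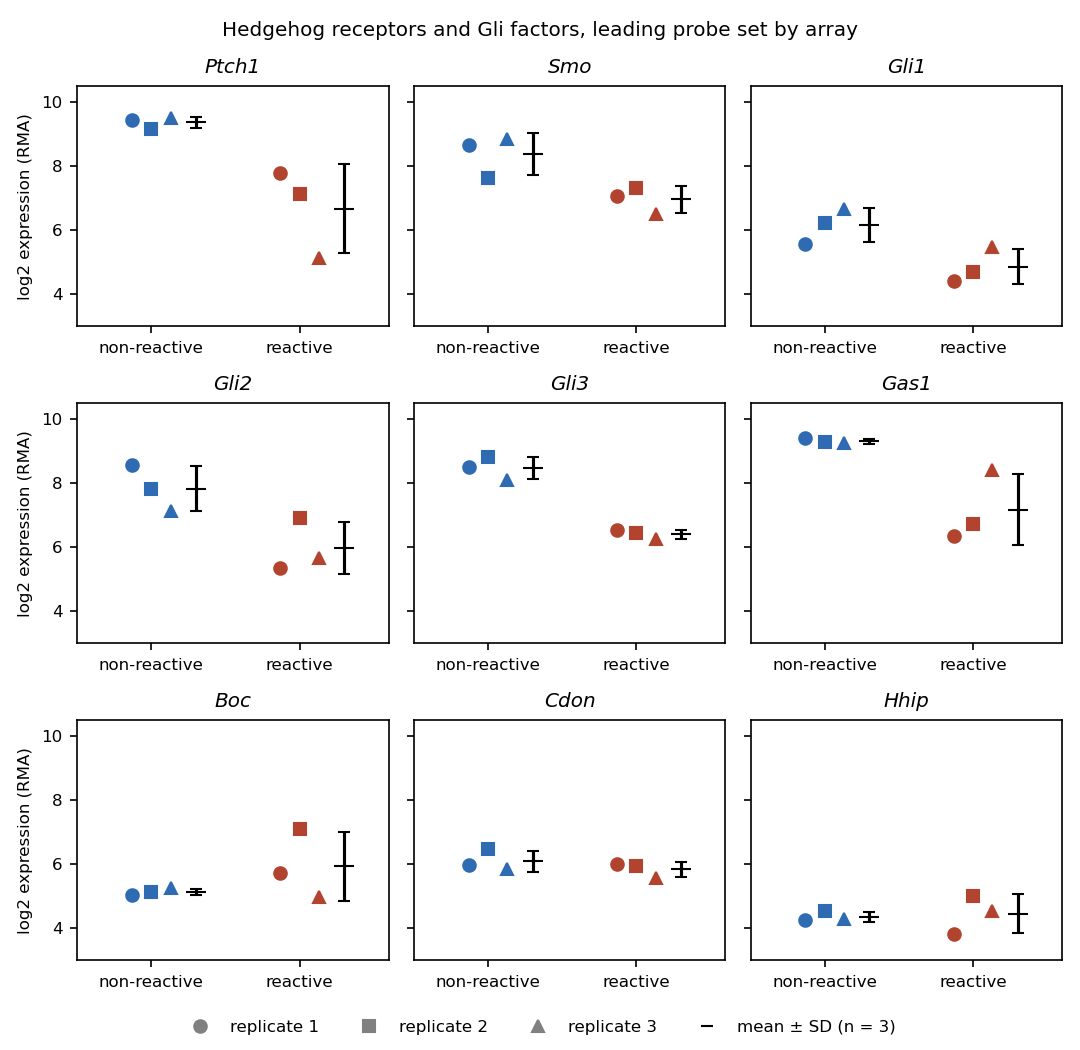
Log2 expression (vertical axis) of the leading probe set of each of the 9 genes, with 3 non-reactive arrays in blue and 3 reactive arrays in red; symbols mark the replicate number and black bars the mean ± SD (n = 3). Ptch1, Smo, Gli1, Gli2, Gli3 and Gas1 have all red points below all blue points, and Gli3, the gene that passed, has the reactive points within 6.25 to 6.53.

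Gli3 encodes the Gli factor that acts mostly as the repressor of the pathway. Its leading probe set, 1456067_at, measured 6.53, 6.44 and 6.25 in reactive replicates 1, 2 and 3 and 8.50, 8.81 and 8.11 in non-reactive replicates 1, 2 and 3. The groups lay far apart, with a gap wider than either group's spread. The means were 6.41 ± 0.15 and 8.47 ± 0.35 (log2, SD, n = 3). The log2 difference was -2.07 (SE 0.24, 95% interval -2.65 to -1.49), with a limma adjusted p of 0.0285 after Benjamini-Hochberg correction over all probe sets. The call rested on all 6 arrays. Leaving out any 1 of them gave limma adjusted p-values of 0.061 to 0.104, while the log2 difference stayed between -2.25 and -1.90. Over all 14 alternatives the adjusted p ran from 0.0293 to 0.112, and 7 of them kept the call.

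The other Gli3 probe sets did not pass. 1455154_at measured 4.34, 4.28 and 3.37 in the reactive arrays against 7.57, 5.40 and 6.14 in the non-reactive ones, again without overlap. Its log2 difference of -2.37 (SE 0.58) had a wide spread in the non-reactive group (SD 1.10) and a limma adjusted p of 0.144. Its reactive mean lay under 4.74, where the array resolves the size of a difference less well. The last, 1450525_at, measured 3.21 to 3.92 in the reactive arrays against 3.55 to 3.80 in the non-reactive ones, where the array shows little signal in either group. With the mean of the 3 probe sets, Gli3 fell by 1.55 on the log2 scale (limma adjusted p = 0.0344).

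The upstream sequences of Gli3 and Gas1 are given because these were the genes with a probe set that passed in at least 1 of the fits tried, Gli3 on all arrays and Gas1 without reactive replicate 3. The windows of Ptch1, Gli2, Hhip and Cdon were also left out because they overlap the annotated span of the gene itself. Each printed sequence is the 250 bases before the RefSeq start, 5′ to 3′ on the strand of the gene, build GRCm38.p6, with CG dinucleotides in capitals. Gli3 is on the plus strand at chr13:15463473-15463722, a window that also lies within the annotated span of the noncoding RNA gene Gm6556. Gas1 is on the minus strand at chr13:60177536-60177785, and no annotated gene overlaps that window.
Gli3: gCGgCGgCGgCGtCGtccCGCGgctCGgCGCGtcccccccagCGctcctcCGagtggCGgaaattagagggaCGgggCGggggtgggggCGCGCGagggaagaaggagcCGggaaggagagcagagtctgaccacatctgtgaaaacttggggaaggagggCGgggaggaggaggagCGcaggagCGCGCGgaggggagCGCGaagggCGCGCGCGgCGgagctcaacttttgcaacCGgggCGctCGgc
Gas1: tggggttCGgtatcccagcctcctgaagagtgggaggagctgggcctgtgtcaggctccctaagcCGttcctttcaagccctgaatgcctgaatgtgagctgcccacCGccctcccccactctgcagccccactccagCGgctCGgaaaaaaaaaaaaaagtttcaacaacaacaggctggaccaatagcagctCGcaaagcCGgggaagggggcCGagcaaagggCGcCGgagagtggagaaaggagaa

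The Gli3 window held 34 CG dinucleotides and 72.8% G and C, and the Gas1 window 10 and 58.8%. Over all 32851 promoters of the table the medians were 6 and 52.4%. The Gli3 window had more CG dinucleotides than 96.5% of them and the Gas1 window more than 62.2%. The consensus that Gli factors bind, GACCACCCA, was searched on both strands in windows of 300 bases, which include the first 50 after the start. The table held such a window for 7 members, all but Gli1 and Boc. For 4 of the 7, Ptch1, Gli2, Hhip and Cdon, that overlap means that the window may not lie at the main start, which limits what the search shows. None of the 7 held the motif exactly or with 1 mismatch, against 0.253% and 6.74% of all promoters. Such a result says only that these letters are not in these windows.

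Gli1, the activator that is itself a target of the pathway, had 1 probe set, 1449058_at. It measured 4.41, 4.70 and 5.48 in the reactive arrays against 5.59, 6.24 and 6.67 in the non-reactive ones. The values of reactive replicates 1 and 2 lay under 4.74, where the array resolves the size of a difference less well. The highest reactive array lay just under the lowest non-reactive one. The log2 difference was -1.30 (SE 0.39, 95% interval -2.22 to -0.37) with a limma adjusted p of 0.230.

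Gli2, the main activator of the family, had 2 probe sets and both were lower in every reactive array. The leading one, 1459211_at, measured 5.36, 6.90 and 5.67 in the reactive arrays against 8.55, 7.81 and 7.13 in the non-reactive ones. Reactive replicate 2 came within 0.23 of the lowest non-reactive array. The log2 difference was -1.85 (SE 0.51, 95% interval -3.08 to -0.63; limma adjusted p = 0.199). The other, 1446086_s_at, differed by -0.52 (SE 0.20) with means of 5.37 ± 0.14 and 5.89 ± 0.13 (log2, SD, n = 3; limma adjusted p = 0.335).

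Ptch1, the receptor that binds the ligand, had the largest difference of the 9 leading probe sets, and also the widest spread. Probe set 1428853_at measured 7.79, 7.12 and 5.12 in reactive replicates 1, 2 and 3 against 9.43, 9.16 and 9.50 in the non-reactive arrays. The non-reactive arrays were tight (SD 0.18) and the reactive ones were not (SD 1.39), with replicate 3 the lowest. The log2 difference was -2.69 (SE 0.65, 95% interval -4.24 to -1.14; limma adjusted p = 0.144). Without reactive replicate 3 it was -1.91. Probe set 1439663_at differed in the same direction by -0.80 (SE 0.27; limma adjusted p = 0.282), without overlap. Probe set 1450824_at measured 4.93 to 5.06 in the reactive arrays against 4.49 to 4.97 in the non-reactive ones and differed by 0.23 (SE 0.21).

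Smo, the membrane protein that passes the signal on, was measured by 3 probe sets. The leading one, 1427049_s_at, measured 7.07, 7.33 and 6.51 in the reactive arrays against 8.65, 7.65 and 8.84 in the non-reactive ones. All reactive arrays were lower, with non-reactive replicate 2 closest to them. The log2 difference was -1.41 (SE 0.38, 95% interval -2.33 to -0.49; limma adjusted p = 0.191). Probe set 1427048_at differed by -1.07 (SE 0.51) and overlapped, since reactive replicate 2 at 5.92 lay within the non-reactive range of 5.43 to 6.03. Probe set 1442215_at was low on 5 of 6 arrays, at 2.75 to 3.28, and at 4.85 in non-reactive replicate 3.

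Hhip, a membrane protein that binds hedgehog ligands and limits their reach, was near the lower end of the array's range. The group means of all 4 probe sets lay between 2.91 and 4.73, below the median of all probe sets. Probe set 1455277_at measured 4.24, 3.53 and 3.88 in the reactive arrays against 4.79, 4.84 and 4.57 in the non-reactive ones, which did not overlap. Its log2 difference was -0.85 (SE 0.24; limma adjusted p = 0.215). The other 3 probe sets, 1437933_at, 1421426_at and 1438083_at, differed by 0.10, 0.27 and 0.19 and overlapped. Signal this low limits what could be detected for Hhip.

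Gas1, a coreceptor anchored to the outer membrane, had a leading probe set, 1416855_at, at 6.36, 6.72 and 8.42 in reactive replicates 1, 2 and 3. The non-reactive arrays measured 9.40, 9.28 and 9.24. Reactive replicate 3 was the closest to the non-reactive arrays, the reverse of its place for Ptch1. The log2 difference was -2.14 (SE 0.52, 95% interval -3.39 to -0.89; limma adjusted p = 0.149). Without reactive replicate 3 it was -2.77 with a limma adjusted p of 0.0369, the only member probe set that passed in that fit, and over all alternatives its adjusted p ran from 0.0369 to 0.362. Replicate 3 was also the reactive array with the highest fibroblast and cycling genes, as given above, and their part in these values was not tested. Of the other Gas1 probe sets, 1448494_at differed by -1.10 (SE 0.54) and 1456322_at by -0.12 (SE 0.25), and both overlapped.

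Boc and Cdon, related coreceptors of the immunoglobulin superfamily, did not share the lower values at their leading probe sets. The leading Boc probe set, 1427516_a_at, measured 5.71, 7.11 and 4.98 in the reactive arrays against 5.05, 5.12 and 5.25 in the non-reactive ones. Reactive replicates 1 and 2 lay above every non-reactive array, and reactive replicate 3 lay below them. The log2 difference of 0.79 (SE 0.51, 95% interval -0.44 to 2.02; limma adjusted p = 0.548) was 0.21 without reactive replicate 2 and 1.27 without reactive replicate 3. Probe set 1426869_at went the other way, at 3.82, 3.86 and 4.55 against 4.78, 5.77 and 5.40, a log2 difference of -1.24 (SE 0.34; limma adjusted p = 0.191). Probe set 1427517_at had little signal, with means of 2.97 and 2.74, and differed by 0.23 (SE 0.21). The Boc probe sets thus disagreed, and with their mean the difference was -0.07. The leading Cdon probe set, 1434957_at, measured 6.01, 5.95 and 5.56 in the reactive arrays against 5.98, 6.46 and 5.84 in the non-reactive ones. Its log2 difference was -0.26 (SE 0.25), with a 95% interval of -0.86 to 0.34. The other Cdon probe set differed by 0.03 (SE 0.20) in the fit on all arrays.

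**Figure D2:**
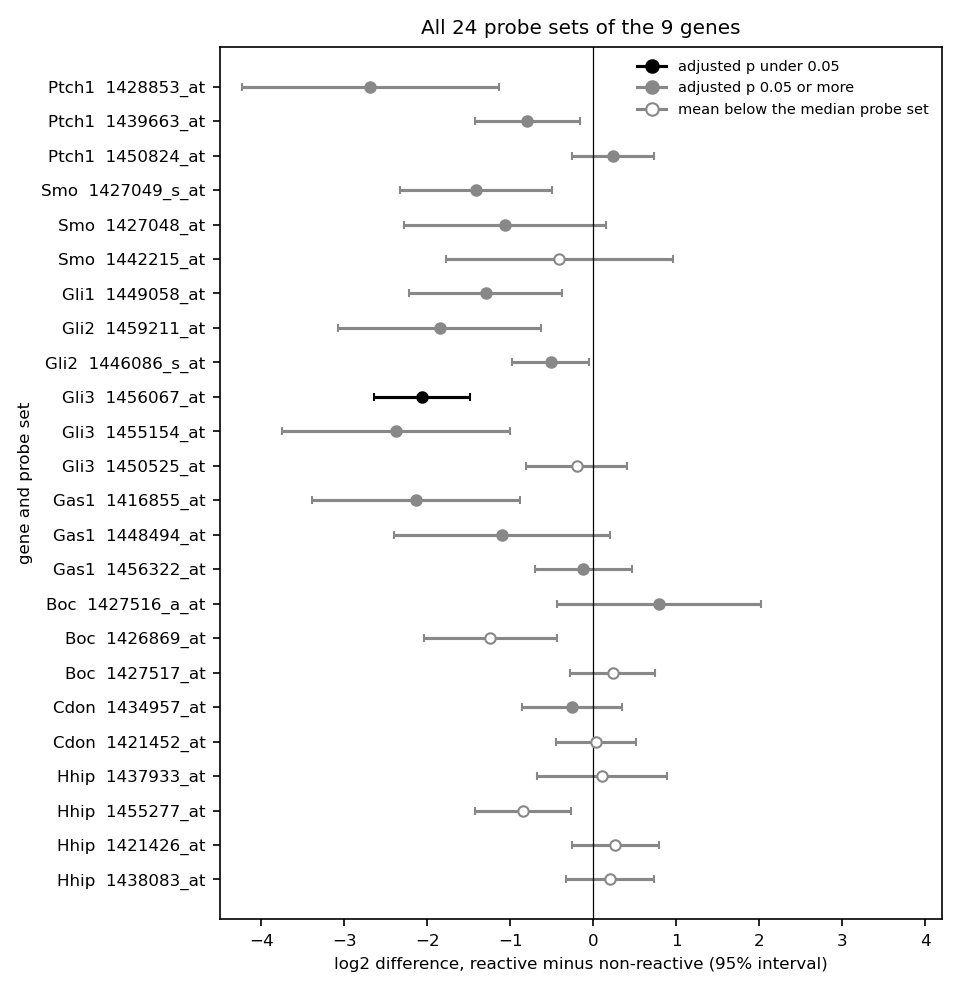
Log2 difference, reactive minus non-reactive (horizontal axis), with its 95% interval for each of the 24 probe sets, ordered by gene; black marks an adjusted p under 0.05, grey the others, and open symbols a mean under 4.74, the median over all probe sets. Of the 24 values 17 are below 0, and the black point is Gli3 at -2.07.

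The values of several genes depended on the probe set. Of the 17 negative differences, 13 were at probe sets with a mean of at least 4.74, and 2 of that brighter group were positive. The 9 dimmer probe sets had a median log2 difference of 0.03. With the mean of all probe sets of a gene, the log2 differences were -1.08 for Ptch1, -0.96 for Smo, -1.19 for Gli2, -1.55 for Gli3, -1.12 for Gas1, -0.11 for Cdon and -0.07 for Hhip. Gli3 was the gene that passed in that fit too.

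Astrocyte genes in general were lower on the same reactive arrays. The mean log2 level of 7 astrocyte genes (Aldh1l1, Slc1a2, Slc1a3, Aqp4, Gja1, Aldoc and Sox9; Gfap, whose promoter drives one reporter, was left out) was 9.58 ± 0.28 in the reactive arrays against 11.15 ± 0.13 in the non-reactive ones (SD, n = 3), a difference of -1.56. Gfap differed by 3.12, and Aldh1l1, whose promoter drives the other reporter, was kept at -0.57. The values below depend on this choice. With Gfap in the mean, the groups would not overlap for Gli3, and Smo and Gli1 would stay negative. Set against the mean of the 7 genes on each array, Gli3 differed by -0.50 between the groups and the groups overlapped. Gas1 differed by -0.58 and Gli2 by -0.29, also with overlap. Smo and Gli1 changed sign, at 0.15 and 0.26. Ptch1 differed by -1.12 and stayed lower in every reactive array, at -2.02, -2.55 and -4.16 against -1.83, -1.84 and -1.68. The closest of these arrays were 0.18 apart. Relative to the astrocyte genes, Boc, Cdon and Hhip differed by 2.36, 1.31 and 1.67 between the groups, with every reactive array higher. That mean itself differed by -1.56, so a gene without any difference would come out higher by that amount on this scale. Before it was subtracted, Boc, Cdon and Hhip differed by 0.79, -0.26 and 0.10. The share of all genes that lie higher on this scale was not counted. For Hhip the signal was below the median of all probe sets in both groups. These relative values carry no test and were chosen after the values had been seen.

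**Figure D3:**
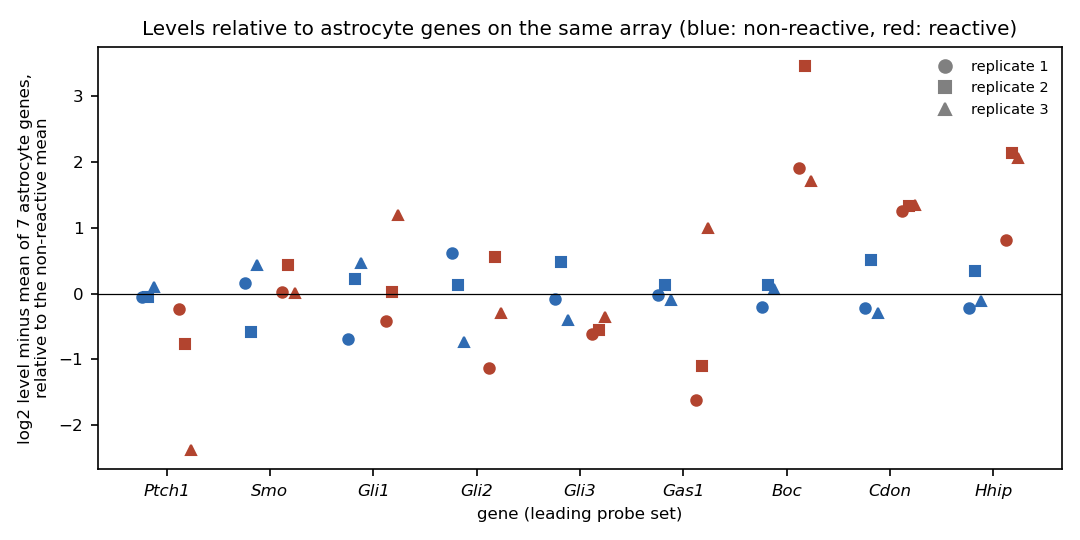
Leading probe set of each gene minus the mean log2 level of 7 astrocyte genes on the same array (vertical axis, set to 0 at the non-reactive mean of each gene), for 3 non-reactive arrays in blue and 3 reactive arrays in red. Only Ptch1 among the 9 genes has all red points below all blue points, and Boc, Cdon and Hhip have all red points above. The subtracted mean itself differed by -1.56 between the groups, which moves the red points of every gene up.

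The rest of the pathway was described through 5 lists that together held 66 measured genes. Each gene was represented by its probe set with the highest mean. Of the 66 genes 2 fell, Sox9 and Pax6, and 0 rose with limma, where 0.561% of all genes fell and 0.390% rose. At an unadjusted p under 0.05, 8 of the 66 were lower (12.1%, against 7.13% of all genes) and 3 of the 66 higher (against 7.88% of all genes). The reactive arrays lay below without overlap for 7 of the 66 genes (10.6%, against 8.20% of all genes) and above for 6 (9.09%, against 13.5%). The median log2 difference was 0.07, close to the 0.12 of all genes.

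Among ligands and their release factors no gene passed with limma, and 0 of 9 had an unadjusted p under 0.05. Of all genes, 7.13% were lower and 7.88% higher at that level. Shh, named outside the rule because it is the ligand, measured 5.03, 5.09 and 4.60 in the reactive arrays against 4.89, 4.82 and 4.38 in the non-reactive ones, which overlapped. Dhh, another ligand, differed by 0.30 (SE 0.24), Disp1 and Disp2, which release the lipid-bound ligand, by 0.30 and 0.35, and the secreted carriers Scube1 and Scube2 by 0.14 and 0.24. Disp2 was at 0.17 when its probe sets were averaged. All 9 differences were above 0, with a median of 0.24, where 60.7% of all genes were above 0. For 4 of the 9, Dhh and Scube2 among them, the signal was under 4.74 in both groups.

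Of 4 other receptors and surface binders none passed with limma. At an unadjusted p under 0.05, 1 was lower (25%, against 7.13% of all genes). That was Gpc4, a glypican, at -1.25 (SE 0.43), and at -0.61 when its probe sets were averaged. Gpc6, another glypican, differed by -0.30 at its leading probe set and by -1.15 when its probe sets were averaged (limma adjusted p = 0.0567). The glypican Gpc3 and the endocytic receptor Lrp2 differed by 0.38 and 0.19, both with means under 4.74 in the 2 groups.

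Of 19 regulators of Gli activity none passed with limma. An unadjusted p under 0.05 was reached by 1 of the 19, with higher values, against 7.88% of all genes. It was Sufu, which holds Gli proteins in the cytoplasm, at 7.03, 7.56 and 7.26 in the reactive arrays against 6.76, 6.48 and 6.82 in the non-reactive ones. Every reactive array was higher, by a log2 difference of 0.60 (SE 0.23; limma adjusted p = 0.335), and by 0.34 when its probe sets were averaged. Dyrk2, a kinase, differed by 0.69 (SE 0.34) at its leading probe set and by -0.10 when its probe sets were averaged. Adcy6, an adenylyl cyclase, differed by -0.91 (SE 0.41). Spop, a ubiquitin ligase adaptor for Gli proteins, and Prkaca, the catalytic subunit of protein kinase A, differed by -0.30 and -0.09. Averaging the probe sets of each gave -0.52 and 0.02.

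Of 13 genes of the primary cilium none passed with limma. At an unadjusted p under 0.05, 2 were lower (15.4%, against 7.13% of all genes) and 0 higher. Evc, a ciliary partner of Smo, measured 4.93, 4.89 and 4.41 in the reactive arrays against 6.29, 6.84 and 5.61 in the non-reactive ones. The groups did not overlap, and the log2 difference was -1.50 (SE 0.35; limma adjusted p = 0.132). It was -0.59 when the probe sets of Evc were averaged. Ift122, of the retrograde transport complex, differed by -0.77 (SE 0.31) and Bbs4, of the BBSome, by -1.18 (SE 0.58), or -0.51 when its probe sets were averaged. The arrestins Arrb1 and Arrb2 differed by -0.61 and 0.63, and Arrb1 by 0.026 without reactive replicate 3. The median of this list was -0.52, the lowest of the 5.

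Of 21 genes listed here as targets of the pathway, 2 fell and 0 rose with limma, against 0.561% and 0.390% of all genes. At an unadjusted p under 0.05, 5 were lower (23.8%, against 7.13% of all genes) and 2 higher (against 7.88% of all genes). Sox9, a transcription factor of astrocytes that is also on the astrocyte list above, measured 6.09, 5.55 and 5.17 in the reactive arrays against 7.99, 7.90 and 7.85 in the non-reactive ones. It fell by 2.31 on the log2 scale (SE 0.27; limma adjusted p = 0.0286). Pax6, a progenitor transcription factor, measured 5.48, 5.60 and 5.57 against 7.40, 6.81 and 6.87, and fell by 1.48 (SE 0.23; limma adjusted p = 0.0497). Sox9 and Pax6 were lower in every reactive array. The list does not separate genes that the pathway raises from genes that it lowers, so a fall has no set meaning for its activity. With the mean of their probe sets neither Sox9 nor Pax6 passed, and the differences were -1.17 for Sox9 (limma adjusted p = 0.0521) and -0.41 for Pax6 (0.407). Over the alternatives the limma adjusted p ran from 0.0251 to 0.111 for Sox9 and from 0.0418 to 0.407 for Pax6, and Pax6 passed in 2 of 15 of them. The call for Sox9 was lost without reactive replicate 2 or any 1 of the non-reactive arrays, and that for Pax6 without any 1 of the 6 arrays.

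Other targets differed in both directions without passing. Ccnd1, the cyclin of early cell cycle, measured 9.33, 9.16 and 11.01 in the reactive arrays against 8.31, 7.45 and 8.55 in the non-reactive ones, a log2 difference of 1.73 (SE 0.55; limma adjusted p = 0.262). The difference was 1.14 without reactive replicate 3 and 0.98 with the mean of probe sets. Ccnd1 was highest in reactive replicate 3, as were the cycling genes, and their part was not tested. Ccnd2, the related cyclin, differed by -0.48 (SE 0.30), or -0.73 with the mean of probe sets. Hsd11b1, a steroid enzyme, differed by -2.05 (SE 0.51) and Rab34, a ciliary small GTPase, by -1.68 (SE 0.44), and both were lower in every reactive array. Bcl2, which restrains cell death, differed by -0.34 (SE 0.32) at its leading probe set and by -1.61 when its probe sets were averaged (limma adjusted p = 0.0592).

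**Figure D4:**
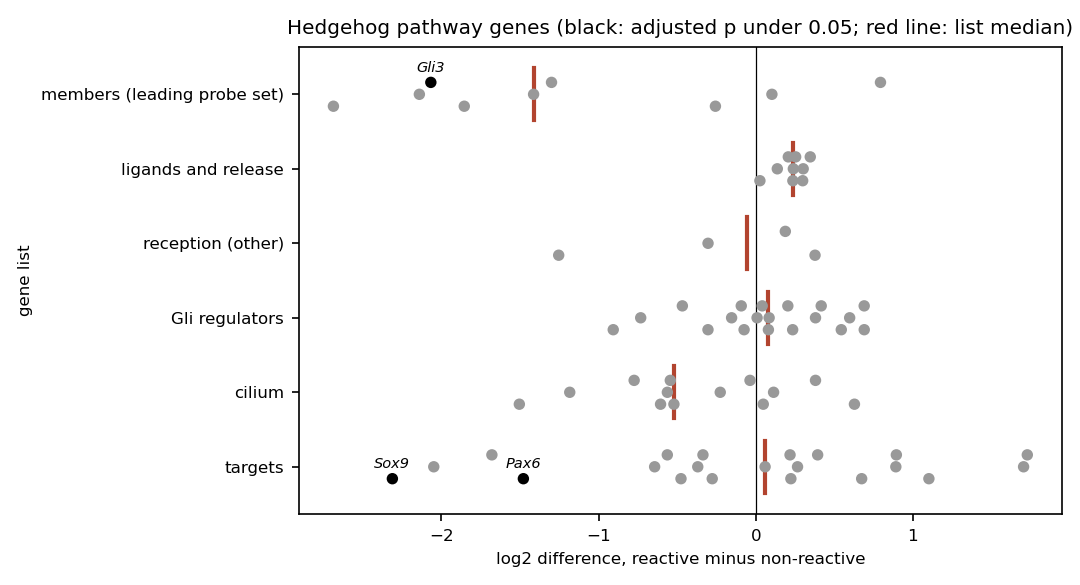
Log2 difference, reactive minus non-reactive (horizontal axis), of each measured gene in the member set and the 5 pathway lists (vertical axis); black points have an adjusted p under 0.05 and red lines mark list medians. The members have a median of -1.41, and the ligand and target lists have medians of 0.24 and 0.06.

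The genes whose profile over the 6 arrays was most like that of Gli3 were Dab1, Mfge8 and 2310061I04Rik, among 12106 genes with a mean of at least 4.74. Likeness was the mean absolute difference between log2 profiles, each centred on its own mean, and was 0.12, 0.14 and 0.18 for these genes. Dab1, an adaptor of reelin signalling, measured 7.01, 7.10 and 6.89 in the reactive arrays against 9.34, 9.18 and 8.73 in the non-reactive ones. Mfge8, a secreted protein that bridges phagocytes to dying cells, measured 10.4, 9.98 and 9.56 against 12.2, 12.3 and 11.8. For Gli1 the closest were Rgp1, Arfgef1 and Fnbp1, at 0.12, 0.13 and 0.15. These genes were picked for their likeness, so it is a description of these 6 arrays.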

How the data were processed

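The values the authors deposited are log2 expression from RMA, the robust multi-array average, as the submitters' processing notes name it. RMA corrects background, equalises the arrays and summarises probes, and no version is given. The sorted RNA was amplified in 2 rounds, per the labels' protocols. The table held 45101 probe sets, and 64 controls were left out. Array medians were 4.65 to 4.73, and 3 arrays a group limit the precision. Reactive minus non-reactive was tested over the 6 arrays in limma 3.58.1 (lmFit, eBayes; R 4.3.3), two-sided, with Benjamini-Hochberg adjustment over 45037 probe sets and a threshold of 0.05. Errors of differences are moderated standard errors. Replicates are separate pools, so p-values measure the spread between pools. The fit was tested on simulated data.

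All member probe sets are named. From each pathway list every gene past the threshold was named, with up to 3 others of smallest p and 2 of highest mean. For likeness, 3 genes each were named for Gli1 and for members past the threshold. The members and lists were chosen with earlier results of these data known. Promoter sequences are from RefSeq, build GRCm38.p6. Alternatives were other scalings and variance models, array weights, a filter on low values, the mean of probe sets, a replicate block and leaving out each array.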

Additional observations from a re-analysis of the deposited data

How the results depend on the processing

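Of the 24 member probe sets, 20 kept their sign in every alternative run, and 2 passed in at least 1 of them, Gli3 1456067_at and Gas1 1416855_at. The member count of 1 was 1 under each other scaling, variance model, array weighting and the filter on low values, and 0 to 1 when each array was left out. The count of 2 pathway genes was 1 with median centring, with a trend, with robust eBayes, with array weights and without low probe sets, 0 with the mean of probe sets, and 0 to 1 when each array was left out. With the replicate number as a block both counts were 0, and 1 of 45037 probe sets passed in all, against 383 without it. Same-numbered arrays did not deviate together (correlations of -0.07, -0.11 and 0.04), and 1 of 6 arrays correlated best with its own number, so the numbers were not taken as pairs. Some signs turned. Cdon 1421452_at was at -0.048 with cyclic loess and between -0.062 and 0.11 with each array left out. In the same way Smo 1442215_at ran from -0.77 to 0.28, Gas1 1456322_at from -0.30 to 0.011, Hhip 1437933_at from -0.17 to 0.42, Scube1 from -0.048 to 0.43, Lrp2 from -0.025 to 0.42, Prkaca from -0.23 to 0.059 and Arrb1 from -0.93 to 0.026. The arrays whose removal turned them were reactive replicate 3 and non-reactive replicate 1 for Cdon and Scube1, reactive replicate 2 for Gas1 and Hhip, reactive replicate 3 for Arrb1, and non-reactive replicates 3, 1 and 2 for Smo, Lrp2 and Prkaca. With the mean of probe sets Boc was at -0.072, Hhip at -0.0715, Dyrk2 at -0.10 and Prkaca at 0.023. Relative to the 7 astrocyte genes without Gfap, an alternative chosen after seeing the data, Smo was at 0.15, Gli1 at 0.26 and Cdon at 1.31. The cause of these changes was not tested. Signal limits Hhip and the dimmer probe sets of Gli3, Smo, Boc and Cdon, as well as Dhh, Scube2, Gpc3 and Lrp2, which lay below the median of all probe sets.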
